A study of Mus musculus with 16 samples.

Results

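Regulatory T cells (Treg cells) without an intact copy of Atg7 were compared with Treg cells that kept 1 intact copy, in both cases from mice that received no drug and after 4 h of stimulation in culture. The comparison takes every array labelled untreated, 4 of each genotype, which is 8 of the 16 arrays of the series. Each gene with a probe set of a single gene symbol was a member, represented by its brightest probe set. There were 22180 such genes, and the 16760 above a signal threshold in at least 1 group were tested. The other 8 arrays, from mice of both genotypes given rapamycin, an inhibitor of the kinase mTOR, at 4 mg per kg daily for 5 days, were part of the same fit and are cited where the genotype difference is set beside its counterpart under the drug.

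All mice were C57BL/6 and all carried Foxp3-Cre, a Cre recombinase expressed with the Treg cell factor Foxp3, so that a floxed Atg7 allele is deleted in cells that express or have expressed Foxp3. The controls were Atg7+/flFoxp3-Cre and are called Atg7+/-; they are heterozygous, not wild type. The other group was Atg7fl/flFoxp3-Cre and is called Atg7-/-. Treg cells were sorted as CD4+ cells positive for a Foxp3-YFP reporter from spleen and from inguinal, axillary and cervical lymph nodes, and were then cultured on plate-bound antibodies to CD3 and CD28. A cell that had lost Foxp3 expression before the sort lay outside this gate. The labels give no ages for the mice and do not state that each replicate was a mouse of its own. The p-values therefore speak of the spread among these samples, some of which may be technical.

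Autophagy encloses cytoplasm and organelles in a double membrane and delivers them to the lysosome. Atg7 is the E1-like enzyme that activates the ubiquitin-like proteins Atg12 and the Atg8 family (LC3 and GABARAP), whose conjugation builds that membrane. Treg cells hold back other T cells and depend on continued Foxp3 expression; mTOR signalling restrains autophagy and drives growth, and its level in Treg cells has to be kept within bounds for them to remain suppressive.

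The 8 arrays were alike in overall distribution, with medians over all probe sets of 4.521 to 4.59 on the log2 scale. Pearson correlations over the tested genes were 0.9895 to 0.9939 within the genotypes and 0.9848 to 0.9907 between them. The first principal component, with 33.22% of the variance, separated the genotypes. Atg7-/- replicate 4 stood apart on the second component (16.08% of the variance), at 19.62 against -12.68 to -4.43 for the other Atg7-/- arrays, and leaving it out is reported beside the results it touches. Markers of T cells and Treg cells were high in both groups, with a list mean of 10.61 to 10.71 in Atg7+/- and 10.66 to 10.8 in Atg7-/- arrays, so the label of the cells is borne out by their own markers. The Y-linked gene Kdm5d read 7.49 to 7.71 on all 8 arrays and the X-inactivation transcript Xist 2.91 to 3.3, a level left out as dim, so the arrays did not differ in sex by these genes.

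Of 16760 genes tested, 527 (3.14%) differed between the untreated genotypes at a limma adjusted p under 0.05, which is what "called" means here; 294 rose in Atg7-/- cells (1.75%) and 233 fell (1.39%). The median difference over all genes was 0.0222 (log2, Atg7-/- minus Atg7+/-), and the median was 0.52 among called risers and -0.52 among called fallers. At least 2-fold differences were seen for 32 of the called risers and 8 of the called fallers. The 4 arrays of one genotype did not overlap the 4 of the other for 514 of the called genes, against 2370 of all genes tested (14.1%). Because the calls were made on these same arrays, the count of 514 largely follows from them and is no separate support. Leaving out 1 array at a time gave 284 to 399 called genes, with 322 (196 higher, 126 lower) without Atg7-/- replicate 4, 284 without Atg7+/- replicate 4, 296 without Atg7+/- replicate 1, 319 without Atg7+/- replicate 3, 333 without Atg7+/- replicate 2 and 300 without Atg7-/- replicate 1.

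The targeted gene was read by 1 probe set. Atg7 gave 6.74, 6.65, 6.65 and 6.59 on the Atg7+/- arrays (replicates 1 to 4, log2 signal, the order used throughout) and 6.41, 6.44, 6.62 and 6.05 on the Atg7-/- arrays. The groups overlapped, and the difference of -0.28 (SE 0.134) was not called (limma adjusted p = 0.299). Neither the deleted exons nor the position of the probes in the transcript is stated by the labels, so this value checks nothing about the genotype. None of 20 genes that neighbour Atg7 on its chromosome was called, against 3.14% of all genes. The arrays of 6 of the 20 did not overlap between genotypes, against 14.1% of all genes. The smallest p-values in this list were those of Irak2 (-0.31, limma adjusted p = 0.0516) and Pparg (0.36, 0.0805).

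**Figure D1:**
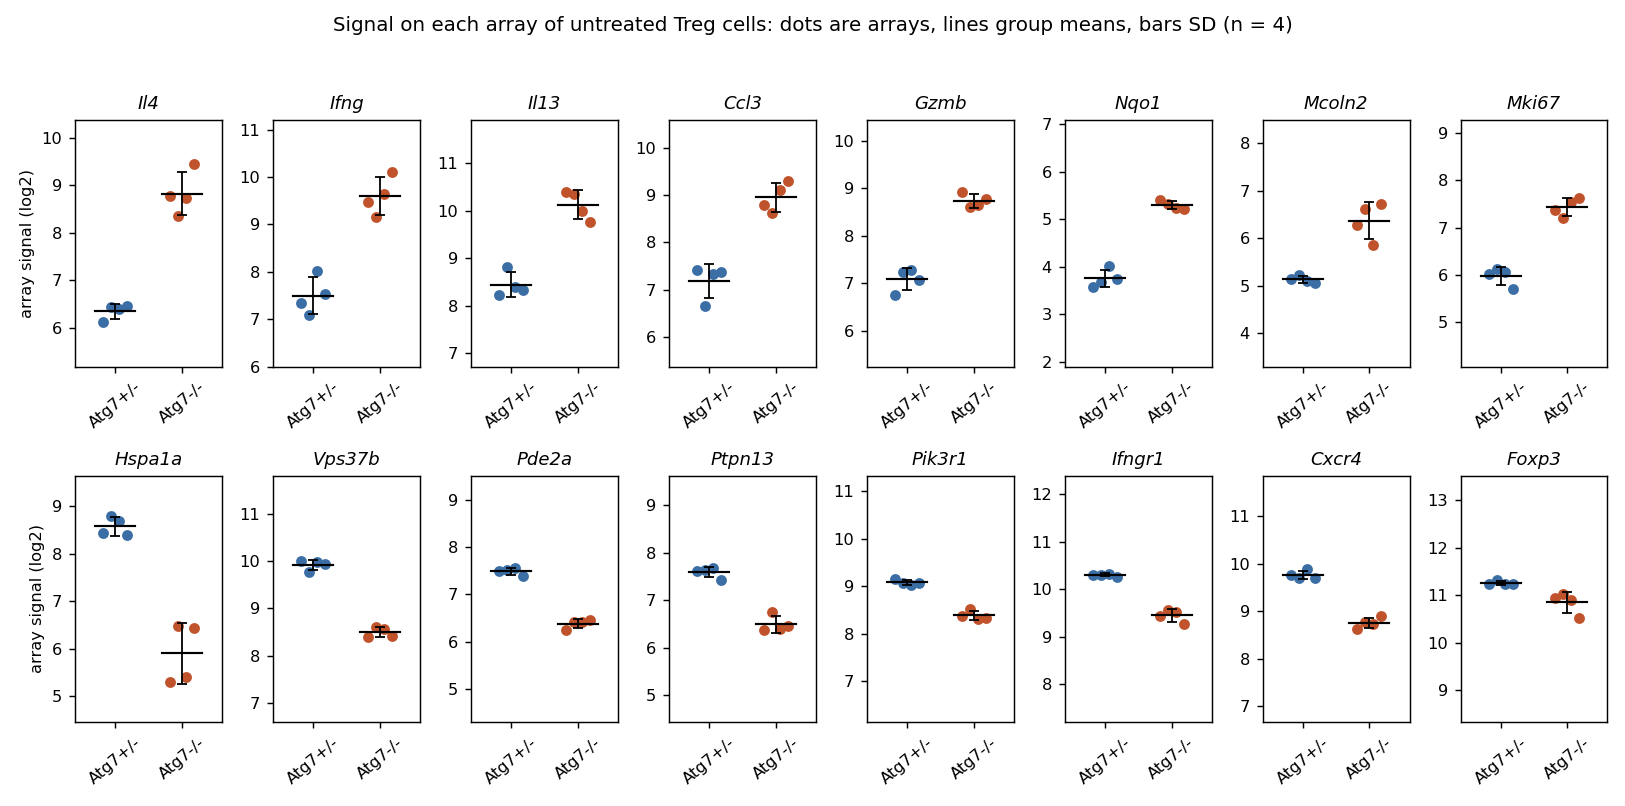
Log2 signal (vertical axis, same span in every panel) of 16 genes on each of the 4 Atg7+/- and 4 Atg7-/- untreated arrays; dots are arrays, horizontal lines group means and bars SD. In each panel the groups do not overlap, and the spread within Atg7-/- cells is widest for Hspa1a, which lies between 5.29 and 6.48.

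Several genes for secreted effector cytokines rose in Atg7-/- cells. Of 24 tested, 7 rose and 1 fell (33.3% called, against 3.14% of all genes), with a list median of 0.32 against 0.0222 over all genes. Shares of called members are given beside 3.14% in the same way for the lists that follow; they are descriptions, with no test of a list. Il4, which directs and marks the T helper 2 lineage, read 6.11, 6.43, 6.39 and 6.45 in Atg7+/- cells and 8.77, 8.35, 8.74 and 9.44 in Atg7-/- cells. Every Atg7-/- array lay well above every control, a 5.58-fold difference (log2 2.48, SE 0.253, limma adjusted p = 0.000121). Ifng, the signature product of T helper 1 cells, read 7.35, 7.09, 8.02 and 7.54 against 9.47, 9.15, 9.64 and 10.11 (2.09, SE 0.392, adjusted p = 0.00622). Products of 2 opposed helper lineages were thus both higher on all 4 arrays.

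Il13 and Il5 lie with Il4 in the T helper 2 cytokine locus. Il13 read 8.23 to 8.82 in controls and 9.77 to 10.4 in Atg7-/- cells (1.69, SE 0.3, adjusted p = 0.0043), and Il5, a growth factor of eosinophils, read 4.59, 5.5, 4.93 and 5.32 against 6.87, 6.69, 6.21 and 5.77 (1.30, SE 0.24, adjusted p = 0.00572). For Il5 the closest pair, Atg7+/- replicate 2 and Atg7-/- replicate 4, lay near each other without crossing. Il31, a cytokine linked to itch, rose by 0.93 (SE 0.155, adjusted p = 0.00296), from 4.02 to 4.36 in controls to 4.86 to 5.42. Il3, which supports mast cells and basophils, rose by 1.5 (SE 0.37, adjusted p = 0.0333), and Osm, of the interleukin 6 family, by 0.61 (adjusted p = 0.0414); Lta, which encodes lymphotoxin alpha, fell by 0.55 (adjusted p = 0.0363). The calls of these last 3 were each lost when any of several arrays was left out. The call of Il3 held without Atg7+/- replicate 3 but not without any other array (adjusted p 0.0509 to 0.0992), that of Lta held without Atg7-/- replicate 2 but without no other array (0.0529 to 0.0936), and that of Osm was lost without Atg7+/- replicate 1 or 4 or Atg7-/- replicate 1, 2 or 4 (0.0654 to 0.126).

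Several cytokines associated with T helper 17 cells had large differences that did not pass the test, with Il17f at 1.64 (limma adjusted p = 0.0571), Il21 at 1.07 (0.0595) and Il17a at 1.15 (0.285). Il10, a suppressive cytokine that effector Treg cells make, read 9.55 to 10.11 in controls and 9.9 to 10.03 in Atg7-/- cells (0.18, adjusted p = 0.575). Csf2, the gene for GM-CSF, had a difference of 0.47 (adjusted p = 0.0823); 3 Atg7-/- arrays lay at 5.16 to 5.39 and replicate 3 at 4.5, inside the control range of 4.38 to 4.71, and without that array it was called (0.00377). Gata3 and Tbx21, the transcription factors that direct T helper 2 and T helper 1 cells, were not called: Gata3 had a difference of 0.29 (adjusted p = 0.127) and Tbx21 of 0.05 (adjusted p = 0.928). In bulk RNA, more cells making a transcript and more transcript per cell cannot be told apart. Mast cells and basophils also make several of these cytokines. Of 9 of their markers 5, including Cpa3 and Mcpt8, were below the signal threshold. The list mean was 3.65 to 3.67 in controls and 3.59 to 3.7 in Atg7-/- cells, and none was called. Kit, a marker in that list, read 6.6 to 6.84 and 6.48 to 6.98. Markers of conventional and resting T cells averaged 8.18 to 8.27 in controls and 8.05 to 8.24 in Atg7-/- cells. Of 8 tested, 1 fell (Ccr7) and none rose, against 3.14% of all genes called. In that list Cd40lg differed by 0.50 (limma adjusted p = 0.0595). The part of such cells in the cytokine values was not tested.

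Of 14 chemokine ligands tested 4 rose and none fell (28.6% called, against 3.14% of all genes), with a list median of 0.38. The other 10 were not called, and 3 of them had a negative difference, Cxcl10 (-0.87), Cxcl16 (-0.24) and Ccl20 (-0.20). Ccl3, a chemokine that draws monocytes and T cells, read 7.41, 6.66, 7.33 and 7.37 in Atg7+/- cells and 8.79, 8.62, 9.1 and 9.3 in Atg7-/- cells, a 3.39-fold difference (1.76, SE 0.244, limma adjusted p = 0.00078). Control replicate 2 was lower than the other controls, and the groups were far apart with or without it. Ccl1, a ligand of Ccr8, read 5.09 to 5.2 against 5.56 to 6.15 (0.79, SE 0.117, adjusted p = 0.00116). Ccl4 and Ccl5, further CC chemokines, rose by 0.72 (adjusted p = 0.0282) and 0.98 (adjusted p = 0.0189). Ccl4 was not called without Atg7+/- replicate 2 or 4 or Atg7-/- replicate 1, 3 or 4 (adjusted p 0.0543 to 0.0884), nor Ccl5 without Atg7+/- replicate 1, 2 or 4 or Atg7-/- replicate 3 or 4 (0.0529 to 0.0632), so that 2 of the 4 calls were left without Atg7+/- replicate 2 or 4 or Atg7-/- replicate 3 or 4.

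Receptors for such signals moved both ways and in small numbers. Among 21 chemokine and homing receptors, 2 fell and 2 rose (19.0% called, against 3.14% of all genes). Cxcr4, the receptor for Cxcl12 that retains cells in bone marrow, read 9.75, 9.7, 9.89 and 9.7 in controls and 8.62, 8.77, 8.72 and 8.89 in Atg7-/- cells (-1.01, SE 0.127, limma adjusted p = 0.000553). Ccr7, which guides T cells into lymph nodes, was held within 10.63 to 10.67 in controls and read 9.92, 9.76, 9.93 and 9.71 in Atg7-/- cells (-0.82, SE 0.115, adjusted p = 0.000786). Gpr183, a receptor for oxysterols that positions cells within lymphoid tissue, rose by 0.53 (adjusted p = 0.00076). Ccr4, a homing receptor for skin, rose by 0.57 (adjusted p = 0.0212), a call lost without Atg7+/- replicate 1 or 4 or Atg7-/- replicate 1 or 2 (0.0602 to 0.0804).

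Of 33 cytokine receptors and their regulators 2 fell and 1 rose (9.09% called, against 3.14% of all genes), and the list median was -0.02. Ifngr1, the ligand-binding chain of the interferon gamma receptor, was tight in controls at 10.31, 10.31, 10.33 and 10.26 and lower in Atg7-/- cells at 9.44, 9.57, 9.52 and 9.26 (-0.85, SE 0.148, limma adjusted p = 0.00369). The receptor was thus lower in the cells in which the transcript of its ligand was higher. Ifnar1, a chain of the type I interferon receptor, fell by 0.36 (adjusted p = 0.0383) and Il12rb1, a chain of the interleukin 12 and 23 receptors, rose by 0.41 (adjusted p = 0.0483). Ifnar1 kept its call without Atg7+/- replicate 2 or Atg7-/- replicate 2 and lost it without each of the other arrays (0.0618 to 0.118), and Il12rb1 lost it without any 1 array (0.0544 to 0.143).

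In the list of 15 cytotoxic granule genes 4 rose and none fell (26.7% called, against 3.14% of all genes). Gzmb, the serine protease granzyme B that Treg cells can use against target cells, read 6.76, 7.23, 7.27 and 7.06 in controls and 8.92, 8.6, 8.64 and 8.78 in Atg7-/- cells (1.65, SE 0.299, limma adjusted p = 0.00492). Nkg7, a granule membrane protein, read 6.82 to 7.18 against 7.66 to 8.06 (0.86, SE 0.168, adjusted p = 0.00855). Gzma, granzyme A, rose by 1.14 (adjusted p = 0.016) and Rab27a, which docks granules for release, by 0.37 (adjusted p = 0.023), while Prf1, which encodes the pore-forming perforin, differed by -0.04. Gzma was not called without Atg7+/- replicate 1 or Atg7-/- replicate 3 (0.0511 to 0.0587), and Rab27a not without those 2 arrays or Atg7-/- replicate 2 (0.0524 to 0.0854), which left 2 of the 4 calls without Atg7+/- replicate 1 or Atg7-/- replicate 3. The marker list for CD8 T, NK and NKT cells, cells that also carry these granules, averaged 4.2 to 4.4 in controls and 4.18 to 4.44 in Atg7-/- cells. Of 8 markers 6 were tested and none was called. Cd8b1 read 6.77 to 7.12 in controls and 7.25 to 7.62 in Atg7-/- cells (0.36, limma adjusted p = 0.228), while Eomes differed by -0.31 (0.319). The part of such cells in the granule values was not tested.

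Among 20 inhibitory receptors and ligands, Havcr2 (Tim-3) and Lag3 rose and Pdcd1 (PD-1) and Cd200r1 fell (4 of 20 called, against 3.14% of all genes). Havcr2 read 5.43, 5.79, 5.71 and 5.32 against 6.77, 6.93, 6.93 and 6.63 (1.25, SE 0.177, limma adjusted p = 0.000786), and Pdcd1 read 8.84, 8.95, 9.07 and 8.83 against 8.08, 8.23, 8.3 and 8.28 (-0.70, SE 0.112, adjusted p = 0.00199), so these 2 brakes on T cells moved apart on all 4 arrays. Lag3 (0.47, adjusted p = 0.0375) kept its call only without Atg7-/- replicate 1 among the single-array omissions (otherwise 0.0537 to 0.112), and Cd200r1 (-0.62, adjusted p = 0.0227) lost it without Atg7+/- replicate 1, 3 or 4 or Atg7-/- replicate 1 or 3 (0.0577 to 0.0805). Among 20 genes of the TNF superfamily and costimulation 2 fell and 1 rose (3 of 20 called). Cd86, better known on antigen-presenting cells as a ligand of CD28 and Ctla4, read 7.37, 7.25, 7.22 and 7.39 against 6.26, 6.11, 6.39 and 6.49 (-0.99, SE 0.209, adjusted p = 0.0142), and Tnfsf8, the ligand of CD30, fell by 0.63 (adjusted p = 0.00543). Tnfrsf8, which encodes CD30 itself, rose by 0.69 (adjusted p = 0.0141), a call lost without replicate 1 of either genotype (0.0506 and 0.0528). Beside Cd86, the 7 dendritic cell markers tested held 1 call, Zbtb46 (-0.41, adjusted p = 0.0189). Xcr1 and Flt3 of the same list went the other way, by 0.41 and 0.32, without being called (limma adjusted p = 0.168 and 0.247). The list median was 0.03, and the list averaged 4.96 to 5.13 in controls and 5.05 to 5.14 in Atg7-/- cells. The part of such cells in the Cd86 value was not tested.

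Of 26 genes of the Treg signature 2 rose and 4 fell (23.1% called, against 3.14% of all genes), with a median of -0.07. The arrays of 11 of the 26 did not overlap between genotypes, against 14.1% of all genes. Foxp3 read 11.24, 11.32, 11.24 and 11.24 in controls and 10.94, 11.04, 10.91 and 10.53 in Atg7-/- cells, all 4 below the controls, a 1.32-fold difference (-0.40, SE 0.101, limma adjusted p = 0.0355). This call was kept without Atg7-/- replicate 2 and lost without each other array (0.0577 to 0.0909). Il2ra, the alpha chain of the interleukin 2 receptor, Ctla4 and Ikzf2 (Helios) had differences of 0.08, 0.07 and 0.05 and overlapping arrays (adjusted p = 0.597, 0.799 and 0.833). The Treg genes that fell clearly were Plagl1, a zinc-finger factor, at 9.49, 9.61, 9.45 and 9.7 against 8.77, 9.06, 8.86 and 8.64 (-0.73, SE 0.109, adjusted p = 0.00116), Fgl2, a secreted suppressive protein (-0.78, adjusted p = 0.000881), and Nt5e, the ectoenzyme CD73 that makes adenosine (-0.67, adjusted p = 0.00489). Lad1 rose by 0.57 (adjusted p = 0.00489), as did Gzmb, given above. Flicr, a noncoding RNA transcribed beside Foxp3, read 7.77, 7.75, 7.59 and 7.71 against 6.97, 7.3, 6.93 and 7.11 (-0.63, SE 0.116, adjusted p = 0.00572).

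Among 39 transcription factors of T cell fate 2 rose and 3 fell (12.8% called, against 3.14% of all genes). Batf, an AP-1 partner needed for effector differentiation of T cells and Treg cells, read 9.13, 9.51, 9.48 and 9.44 against 10.11, 10.05, 9.83 and 9.99 (0.60, SE 0.119, limma adjusted p = 0.0088). Prdm1, which encodes Blimp-1, a factor of effector Treg cells, rose by 0.68 (adjusted p = 0.0141; 0.0528 without Atg7+/- replicate 4). Nr3c1, the glucocorticoid receptor, fell by 0.47 (adjusted p = 0.00462), beside Plagl1 and Foxp3. Myc, a driver of cell growth, read 11.06 to 11.14 in controls and 11.12, 11.08, 11.09 and 10.74 in Atg7-/- cells, a difference of -0.09 that was not called (adjusted p = 0.689). Without the last array the Myc difference was 0.00359.

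**Figure D2:**
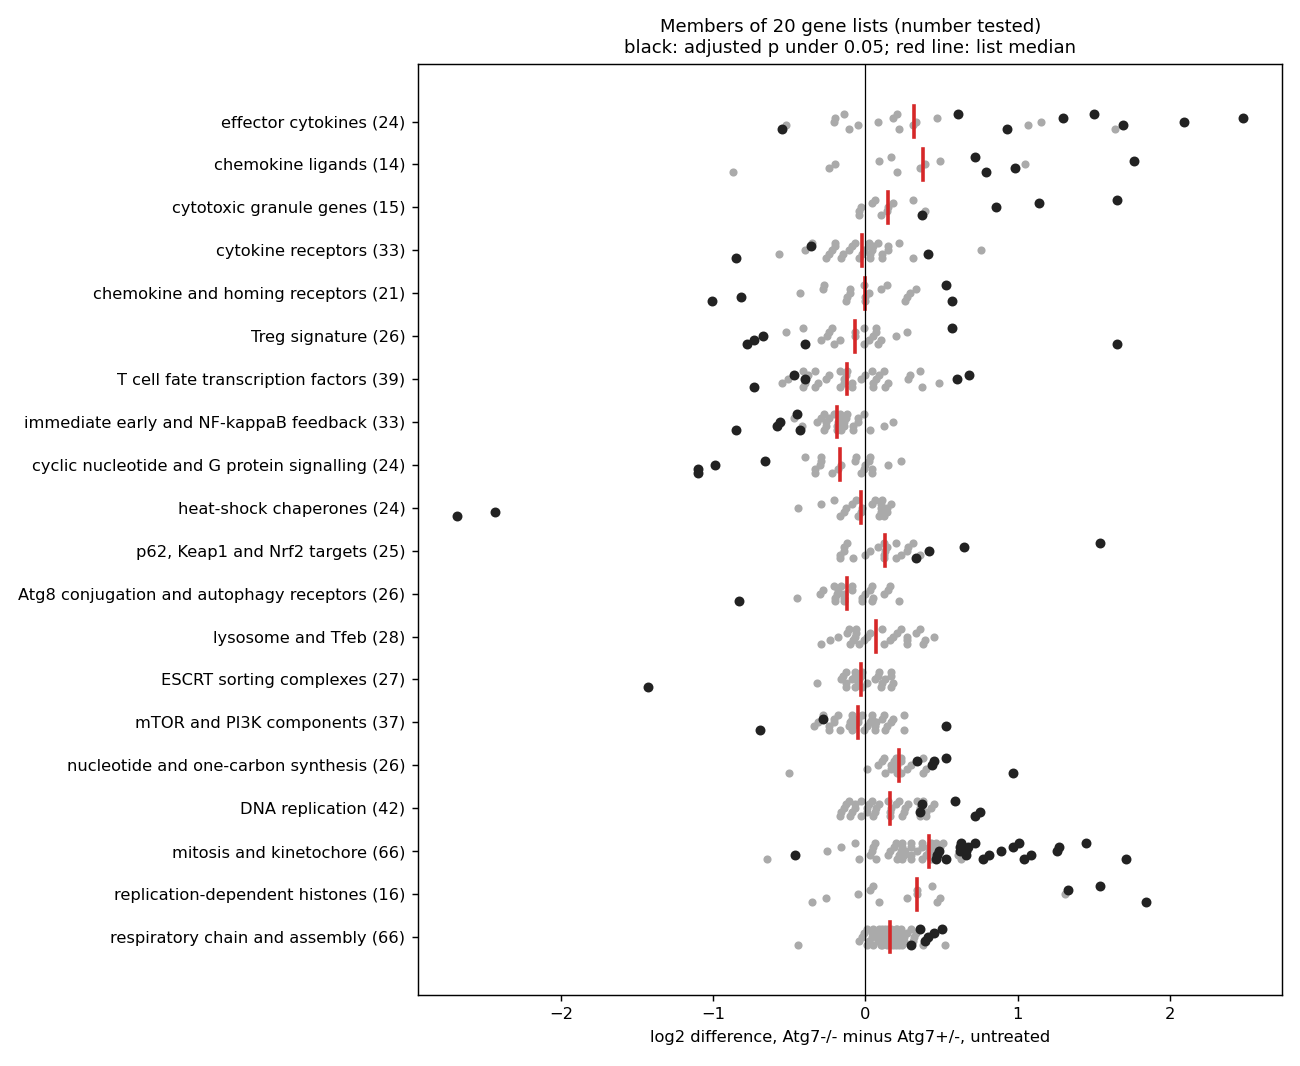
Log2 difference (horizontal axis, Atg7-/- minus Atg7+/-, untreated) of each tested member of 20 gene lists, with the number tested in parentheses; black dots are called genes and red lines list medians. The medians run from -0.19 for immediate early genes to 0.42 for mitosis genes, and in the chaperone list both called genes lie far from the remaining members.

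Genes in the list of immediate early genes and feedback inhibitors of NF-kappaB had mostly lower values in Atg7-/- cells. T cell receptor stimulation induces many of these genes within the first hours, though not all, and induction itself was not measured here. Of 33 tested 5 fell and none rose (15.2% called, against 3.14% of all genes); 30 had a negative difference, against 55.5% of all genes with a positive one, and the median was -0.19. The list mean was 9.39, 9.4, 9.46 and 9.41 in controls and 9.19, 9.32, 9.25 and 9.01 in Atg7-/- cells, lowest on replicate 4. Dusp1, a phosphatase that turns off MAP kinases, read 9.09, 9.13, 9.16 and 9.26 against 8.54, 8.81, 8.53 and 8.47 (-0.58, SE 0.0951, limma adjusted p = 0.00279), and Btg1, which restrains proliferation, fell by 0.56 (adjusted p = 0.00695). Fosb, a subunit of AP-1, fell by 0.85 (adjusted p = 0.0184), Btg2 by 0.45 (adjusted p = 0.0439) and Cd83 by 0.43 (adjusted p = 0.0202). Btg2 lost its call without any 1 array (0.0656 to 0.125), Fosb without Atg7+/- replicate 3 or Atg7-/- replicate 1 or 3 (0.0553 to 0.0647) and Cd83 without replicate 4 of either genotype or Atg7-/- replicate 1 (0.0506 to 0.073), so that 2 of the 5 calls were left without Atg7-/- replicate 1, 3 without replicate 3 or 4 of either genotype, and 4 in the other omissions. Nr4a1 and Egr1, early genes used as gauges of receptor signal strength, differed by -0.08 and -0.12 and were not called.

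Proximal T cell receptor components gave a single call among 35 (2.86%, against 3.14% of all genes). Themis, a protein of the early receptor complex, read 5.92, 5.82, 6.17 and 5.89 in controls and 7.24, 7.24, 7.21 and 7.54 in Atg7-/- cells (1.36, SE 0.183, limma adjusted p = 0.000706). Cd3e and Cd4 differed by 0.11 and 0.25 (adjusted p = 0.609 and 0.426). Among 16 non-receptor tyrosine phosphatases Ptpn13 fell and Ptpn3 rose (2 of 16 called). Ptpn13 read 7.62, 7.63, 7.69 and 7.44 against 6.37, 6.76, 6.4 and 6.46 (-1.10, SE 0.201, adjusted p = 0.00543), and Ptpn3 had a difference of 0.61 (SE 0.125, adjusted p = 0.0128). Tnip3, which binds the NF-kappaB regulator A20, was outside these lists and rose by 1.31 (SE 0.198, adjusted p = 0.00138), from 5.31 to 5.91 in controls to 6.77 to 7.09.

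Of 24 genes of cyclic nucleotide and G protein signalling 4 fell and none rose (16.7% called, against 3.14% of all genes), with a median of -0.17. The other 20 were not called, and 7 had a positive difference. Pde2a, a phosphodiesterase of cAMP and cGMP that cGMP itself stimulates, read 7.49, 7.51, 7.56 and 7.39 in controls and 6.25, 6.42, 6.41 and 6.46 in Atg7-/- cells (-1.10, SE 0.162, limma adjusted p = 0.00104). Pde7a, a cAMP phosphodiesterase, read 7.56, 7.53, 7.5 and 7.56 against 6.69, 6.95, 6.99 and 6.88 (-0.66, SE 0.0842, adjusted p = 0.000553). Both thus separated the genotypes with little spread inside each. Gucy1a1, a subunit of the nitric oxide receptor that makes cGMP, was more variable, at 6.48, 5.93, 6.32 and 5.64 against 4.86, 5.43, 5.17 and 4.49 (-1.10, SE 0.215, adjusted p = 0.00842). Rgs2, which shortens G protein signals, fell by 0.99 (adjusted p = 0.0397), a call kept without Atg7-/- replicate 4 and lost without each other array (0.0668 to 0.108). Other phosphodiesterases were not called: Pde4b differed by -0.40, Pde4d by -0.06 and Pde3b by 0.23.

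**Figure D3:**
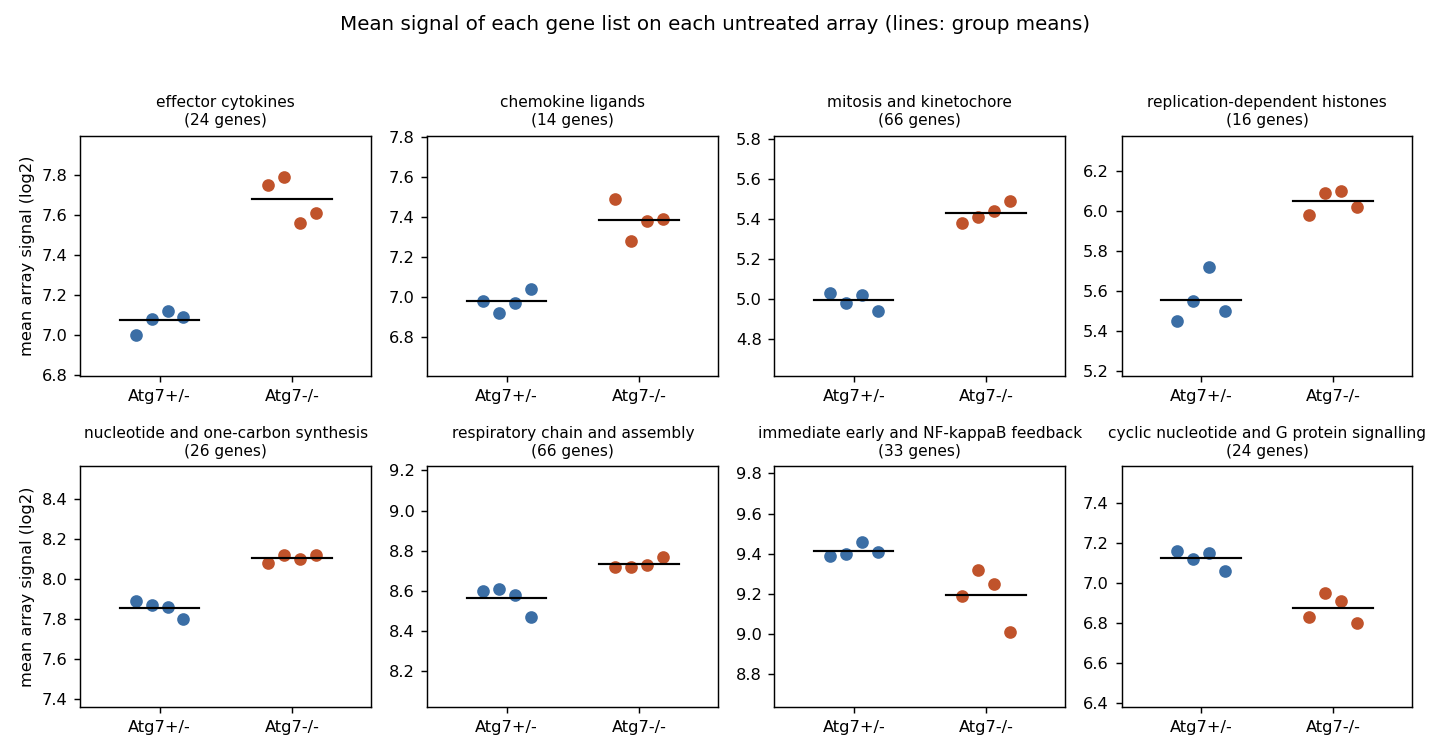
Mean log2 signal (vertical axis, same span in every panel) over the tested members of 8 gene lists on each of the 4 Atg7+/- and 4 Atg7-/- untreated arrays; dots are arrays and lines group means. The mitosis list lies at 4.94 to 5.03 in Atg7+/- and 5.38 to 5.49 in Atg7-/- arrays, and the immediate early list is lowest on Atg7-/- replicate 4, at 9.01.

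The steepest falls were in the genes of inducible heat-shock protein 70, the chaperone that Hsf1 switches on when unfolded protein builds up. Hspa1a read 8.43, 8.8, 8.69 and 8.39 in controls and 5.29, 6.48, 5.39 and 6.43 in Atg7-/- cells, a 6.41-fold difference (-2.68, SE 0.513, limma adjusted p = 0.00732). Hspa1b read 9.01, 9.05, 9.2 and 8.9 against 6.0, 7.39, 6.08 and 6.98, a 5.38-fold difference (-2.43, SE 0.547, adjusted p = 0.0198; 0.0521 to 0.0697 without replicate 1 or 3 of either genotype). The Atg7-/- arrays fell into 2 levels, replicates 1 and 3 lower and replicates 2 and 4 higher, in the same way for both genes. The genes are near-identical copies and can share probes, so they do not count as separate observations. Their upstream sequences, 5′ to 3′ on the sense strand from RefSeq (GRCm38.p6), are shown because they carry the element that Hsf1 binds; Hspa1a is chr17:34972187-34972286 and Hspa1b chr17:34959269-34959368, both on the minus strand. The capitals mark GAANNTTC, the core of the heat-shock element made of inverted GAA units, starting at -104 from the start site, and an inverted CCAAT box (ATTGG) at -67:
Hspa1a: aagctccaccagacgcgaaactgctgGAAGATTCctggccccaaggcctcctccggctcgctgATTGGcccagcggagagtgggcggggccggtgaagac
Hspa1b: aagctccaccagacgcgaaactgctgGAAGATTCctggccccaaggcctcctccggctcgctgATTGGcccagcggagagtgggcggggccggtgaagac
The 2 genes differed at 3 of the 250 bases before the start site. GAANNTTC, which reads the same on both strands, was found in 9 of 20 chaperone genes with a promoter window (250 bases before to 50 after the start site) and in 7.39% of the windows of 12971 tested genes. It was present in 7 of the 18 chaperone windows whose genes were not called.

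None of the remaining 22 of 24 chaperones was called (8.33% of the list called, against 3.14% of all genes), and the list median was -0.03. Hspa8, the constitutive relative of Hspa1a, was very high and level, at 12.6 to 12.63 in controls and 12.47 to 12.64 in Atg7-/- cells (-0.03, limma adjusted p = 0.871). Hsph1 and Dnajb1, partners of heat-shock protein 70 that Hsf1 also induces, differed by -0.14 (adjusted p = 0.535) and -0.13 (adjusted p = 0.578), and Bag3, another, by -0.44 (adjusted p = 0.0712). Of 25 genes of endoplasmic reticulum stress 1 fell (4.0%), Eif2ak3, which encodes the sensor kinase PERK (-0.51, adjusted p = 0.0348); its call was kept without Atg7-/- replicate 1 and lost without each other array (0.0502 to 0.107).

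Sqstm1 encodes p62, an autophagy receptor that is itself degraded by autophagy and that can free the transcription factor Nrf2 from its inhibitor Keap1. Its transcript read 9.07, 9.1, 9.1 and 9.1 in controls and 9.06, 9.02, 8.92 and 8.8 in Atg7-/- cells, lower on each array by a margin that was not called (-0.14, limma adjusted p = 0.555). Among 25 genes of p62, Keap1 and Nrf2 targets 4 rose and none fell (4 of 25 called, against 3.14% of all genes), and the median was 0.13. Nqo1, a quinone reductase widely used as an Nrf2 readout, read 3.58, 3.68, 4.01 and 3.75 in controls, near the signal threshold of 3.549, and 5.4, 5.32, 5.24 and 5.21 in Atg7-/- cells (1.54, SE 0.199, adjusted p = 0.000574). Srxn1, which repairs oxidised peroxiredoxins, read 6.5, 6.38, 6.42 and 6.38 against 7.1, 7.3, 6.96 and 6.94 (0.65, SE 0.0937, adjusted p = 0.000881). Its upstream sequence (chr2:152105414-152105513, plus strand, GRCm38.p6, RefSeq) is shown because it holds the core that Nrf2 binds. The capitals mark TGANNNNGC, the core of the antioxidant response element, on the sense strand at -45 and inverted at -57, which do not overlap:
Srxn1: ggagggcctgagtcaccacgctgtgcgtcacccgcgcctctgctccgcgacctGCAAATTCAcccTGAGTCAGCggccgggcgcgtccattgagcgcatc
This short motif is common: it was found in 47.1% of tested windows and in 12 of 20 windows of the list, 2 of 3 called members and 10 of 17 not called. The export pumps Abcc1 (0.42, adjusted p = 0.0315) and Abcc4 (0.33, adjusted p = 0.0466) were the other called members. Abcc1 kept its call without Atg7-/- replicate 4 and lost it without each other array (0.0531 to 0.101), Abcc4 lost it without any 1 array (0.0514 to 0.128), so that 2 of the 4 calls were left without any array but Atg7-/- replicate 4. Classical Nrf2 targets that were not called include Hmox1 (0.27, adjusted p = 0.689), Gclm (0.12, adjusted p = 0.654) and Txnrd1 (0.23, adjusted p = 0.196). The metallothionein gene Mt2, which responds to zinc and oxidants, rose from 6.91, 7.22, 7.21 and 6.98 to 8.53, 8.04, 7.93 and 8.4 (1.15, SE 0.213, adjusted p = 0.00575), and its neighbour Mt1 had a difference of 0.66 (adjusted p = 0.052).

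Transcripts of the autophagy machinery itself were called at shares near that of all genes. Of 21 genes of initiation and the lipid kinase complex 1 fell (4.76%, against 3.14% of all genes called), Rb1cc1, which encodes the scaffold FIP200 of the Ulk1 complex, at 7.94, 8.05, 7.9 and 7.76 against 7.18, 7.58, 7.41 and 7.49 (-0.50, SE 0.0981, limma adjusted p = 0.00855). Of 26 genes of Atg8 conjugation and autophagy receptors 1 fell (3.85%), Tecpr1, a tether between autophagosome and lysosome, at 7.07, 6.84, 7.02 and 6.75 against 6.12, 6.12, 6.21 and 5.92 (-0.83, SE 0.144, adjusted p = 0.00365). Both kept their calls without each array in turn, and both list medians were -0.12. A negative difference was seen for 15 of the 21 and 18 of the 26 genes, whereas 55.5% of all genes had a positive one. The mean of the Atg8 list was 6.86 to 6.95 in controls and 6.73 to 6.85 in Atg7-/- cells, and that of the initiation list 7.01 to 7.13 and 6.89 to 7.01. Map1lc3b, the gene of LC3B, differed by -0.45 and Atg3 by 0.03, neither called. Atg9b, which encodes a lipid scramblase of autophagic vesicles, had a low signal and rose by 0.57 (adjusted p = 0.00392), from 3.64 to 4.07 in controls to 4.28 to 4.58.

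Vps37b, on another route to the lysosome, fell. It encodes a subunit of ESCRT-I, which sorts ubiquitinated membrane proteins into multivesicular bodies, and read 10.01, 9.77, 9.98 and 9.93 in controls and 8.39, 8.61, 8.56 and 8.42 in Atg7-/- cells (-1.43, SE 0.201, limma adjusted p = 0.000786). It was the 1 called gene of 27 in the ESCRT list (3.7%, against 3.14% of all genes). None of 28 lysosome and Tfeb genes was called; 8 had arrays that did not overlap (28.6%, against 14.1% of all genes), and the largest difference was that of Gusb, beta-glucuronidase (0.45, adjusted p = 0.0867). The endolysosomal calcium channel genes behaved differently from one another. Mcoln2 (TRPML2) read 5.15, 5.23, 5.09 and 5.05 in controls and 6.28, 6.61, 5.86 and 6.73 in Atg7-/- cells (1.24, SE 0.173, adjusted p = 0.00078), Mcoln3 (TRPML3) rose by 0.56 (SE 0.101, adjusted p = 0.00492), and Mcoln1 (TRPML1), a target of Tfeb, differed by -0.29 (adjusted p = 0.0882).

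Of 37 genes of the mTOR and PI3K pathway 1 rose and 2 fell (8.11% called, against 3.14% of all genes). Pik3r1, the p85 alpha regulatory subunit that stabilises and restrains PI3K, read 9.16, 9.07, 9.02 and 9.06 in controls and 8.38, 8.52, 8.3 and 8.33 in Atg7-/- cells (-0.69, SE 0.0968, limma adjusted p = 0.00078). Fnip2, a partner of folliculin at the lysosome, was tight in controls at 5.34, 5.4, 5.35 and 5.36 and higher in Atg7-/- cells at 6.02, 5.94, 5.67 and 5.93 (0.53, SE 0.0962, adjusted p = 0.00543). Depdc5, of the GATOR1 complex that shuts off mTORC1 when amino acids are short, fell by 0.28 (adjusted p = 0.0412) and lost its call without any 1 array (0.0544 to 0.118). Upstream of PI3K, Irs2, an insulin receptor substrate, fell by 0.68 (SE 0.128, adjusted p = 0.0061), and Igf1r by 0.60 (adjusted p = 0.0189; 0.0561 to 0.0684 without Atg7+/- replicate 1, 2 or 3 or Atg7-/- replicate 1 or 4). Mtor, Rptor and Rictor, the kinase and its partners, differed by 0.04, -0.08 and -0.09.

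On the supply side of growth, single transporters and enzymes were called higher, and most other members had small positive differences. A positive difference was seen for 18 of 21 genes of glycolysis and the pentose phosphate pathway (median 0.16), against 55.5% of all genes. The same count, 18 of 21, held for nutrient transporters (median 0.10). Hk2, the hexokinase that commits glucose to glycolysis, was the 1 called gene of 21 in glycolysis and the pentose phosphate pathway (4.76%, against 3.14% of all genes), at 7.92, 7.87, 7.87 and 7.89 in controls and 8.47, 8.29, 8.29 and 8.44 in Atg7-/- cells (0.49, SE 0.0758, limma adjusted p = 0.00177). Txnip, which holds back glucose uptake, fell from 8.35, 8.18, 8.54 and 7.89 to 7.33, 7.09, 7.49 and 7.5 (-0.89, SE 0.157, adjusted p = 0.0043). Of 21 nutrient transporters 2 rose (9.52%). Slc43a1, a transporter of large neutral amino acids, rose by 0.50 (adjusted p = 0.0061). Slc6a6, the taurine transporter, rose by 0.36 (adjusted p = 0.0369), a call lost without any 1 array (0.0529 to 0.121). No gene of 23 in sterol and fatty acid synthesis was called.

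Nucleotide and one-carbon synthesis genes were higher almost throughout. Of 26 tested 25 had a positive difference, 19 had arrays that did not overlap (against 14.1% of all genes) and 5 rose (19.2% called, against 3.14% of all genes), with a median of 0.22 against 0.0222 over all genes. The list mean was 7.89, 7.87, 7.86 and 7.8 in controls and 8.08, 8.12, 8.1 and 8.12 in Atg7-/- cells. Dut, which keeps uracil out of DNA, read 7.78, 7.7, 7.94 and 7.54 against 8.44, 8.26, 8.22 and 8.16 (0.53, SE 0.0993, limma adjusted p = 0.0061) and kept its call without each array in turn. Rrm2, the regulated subunit of ribonucleotide reductase, had the largest difference, 0.97 (adjusted p = 0.0285), with Psph at 0.45 (0.0368), Ctps at 0.44 (0.0162) and Dtymk at 0.34 (0.0202). Those 4 calls were each lost when any of several arrays was left out. Rrm2 kept its call without Atg7-/- replicate 1 (otherwise 0.0503 to 0.0932) and Psph without Atg7-/- replicate 2 (otherwise 0.0705 to 0.107); Ctps lost it without Atg7+/- replicate 3 or 4 or Atg7-/- replicate 4 (0.0502 to 0.0588) and Dtymk without Atg7+/- replicate 1 or 4 or Atg7-/- replicate 4 (0.0617 to 0.0677). The count was 1 without replicate 4 of either genotype, 2 without Atg7+/- replicate 1 or 3, and 3 without Atg7+/- replicate 2 or Atg7-/- replicate 3.

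Genes of cell division held more risers than any other of the 40 lists. Of 66 mitosis and kinetochore genes 22 rose and 1 fell (34.8% called, against 3.14% of all genes). A positive difference was seen for 60 of them, against 55.5% of all genes, and 36 had arrays that did not overlap, against 14.1%. The list median was 0.42. The list mean was 5.03, 4.98, 5.02 and 4.94 in controls and 5.38, 5.41, 5.44 and 5.49 in Atg7-/- cells. The number of risers was 16 to 21 when 1 array was left out and 17 without Atg7-/- replicate 4. These list means lay above the array medians of 4.521 to 4.59, but single members such as Nuf2 were faint in controls. Nuf2, of the Ndc80 complex that ties kinetochores to microtubules, read 3.95, 3.6, 3.57 and 3.81 in controls, near the threshold, and 5.4, 5.24, 5.58 and 5.55 in Atg7-/- cells (1.71, SE 0.201, limma adjusted p = 0.000345). Mki67, the proliferation antigen Ki-67 that coats mitotic chromosomes, read 6.03, 6.13, 6.07 and 5.71 against 7.37, 7.21, 7.53 and 7.62 (1.45, SE 0.239, adjusted p = 0.00275).

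Motors and their partners followed. Kif11, the kinesin that pushes spindle poles apart, read 5.39, 5.08, 5.05 and 5.1 in controls and 6.11, 6.52, 6.22 and 6.83 in Atg7-/- cells (1.27, SE 0.191, limma adjusted p = 0.00138), and Kif15, which backs it up, rose by 1.04 (SE 0.145, adjusted p = 0.00078). Top2a, which untangles sister chromatids, rose by 1.26, Ube2c, which loads ubiquitin for the anaphase-promoting complex, by 1.09, Birc5 (survivin), of the chromosomal passenger complex, by 1.01 and Knl1, a kinetochore scaffold, by 0.97, all kept without each array in turn. The remaining called risers ranged from Kif14 at 0.46 to Kif18b at 0.89. Smc4, a condensin subunit, was the 1 member that fell (-0.46), also without each array in turn. Cdc20 and Aurka differed by 0.05 and 0.16 and were not called.

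The promoters of 2 leading members are shown because mitotic genes are known for 2 elements, the CCAAT box bound by NF-Y and the cell cycle homology region (TTTGAA) bound by the DREAM complex, which silences them in resting cells. The sequences are RefSeq's for GRCm38.p6, sense strand, Kif11 at chr19:37376302-37376381 (plus strand) and Mki67 at chr7:135716460-135716569 (minus strand). The capitals mark TTTGAA and CCAAT or their reverse complements TTCAAA and ATTGG, with no match overlapping another:
Kif11: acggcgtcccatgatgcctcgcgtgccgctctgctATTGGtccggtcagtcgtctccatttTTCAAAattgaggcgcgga
Mki67: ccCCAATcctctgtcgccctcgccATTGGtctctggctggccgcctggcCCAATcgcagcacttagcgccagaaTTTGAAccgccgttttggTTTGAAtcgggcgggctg
In Kif11 the inverted CCAAT box began at -45 and the inverted TTTGAA at -19; in Mki67 there were 3 CCAAT matches, at -188, -166 and -141, and 2 TTTGAA matches, at -116 and -98. Of 58 mitosis genes with a window 40 held TTTGAA on either strand (69.0%) and 41 held CCAAT (70.7%), against 15.1% and 41.3% of tested windows. Within the list, 12 of 18 called and 28 of 40 not called had TTTGAA, and 10 of 18 and 31 of 40 had CCAAT.

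Of 31 cyclins, kinases and inhibitors 5 rose and none fell (16.1% called, against 3.14% of all genes). Ccna2, the cyclin of S and G2 phase, read 5.49, 5.13, 5.24 and 4.62 in controls and 6.19, 6.29, 6.3 and 6.49 in Atg7-/- cells (1.19, SE 0.163, limma adjusted p = 0.00076), Wee1, the kinase that inhibits Cdk1, rose by 0.78 (adjusted p = 0.000345), E2f8, a repressor of E2F targets, by 0.84 (0.000904), and Cdk6, a G1 kinase, by 0.48 (0.0116). Cdk1 itself rose by 1.02 (adjusted p = 0.016; 0.0515 and 0.0545 without replicate 1 of either genotype). Among 42 DNA replication genes 5 rose and none fell (11.9% called), with a median of 0.16: Tipin, of the fork protection complex (0.75, adjusted p = 0.0101), and Cdc45, of the replicative helicase (0.59, 0.0113), kept their calls without each array. Chaf1a (0.72), Mcm10 (0.37) and Dnmt1 (0.36) did not: Chaf1a was lost without Atg7+/- replicate 1 or 4 or Atg7-/- replicate 1, 2 or 3 (0.0596 to 0.0968), Mcm10 without any array but Atg7-/- replicate 1 (0.0501 to 0.0859) and Dnmt1 without Atg7+/- replicate 2 or 4 or Atg7-/- replicate 3 (0.0536 to 0.0627), which left 2 calls without Atg7+/- replicate 4 or Atg7-/- replicate 3 and 3 without Atg7+/- replicate 1 or 2 or Atg7-/- replicate 2. The helicase subunit Mcm2, an early S phase gene, differed by 0.16 (adjusted p = 0.434).

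Replication-dependent histone genes, transcribed in S phase in large clusters of similar copies, gave 3 rises among 16 tested (18.8% called, against 3.14% of all genes). Most of the family was not assessed: of 59 genes listed, 37 had no value of their own and 6 were dim. H2ac15 read 8.0, 8.39, 8.0 and 8.03 in controls and 9.58, 9.69, 9.55 and 9.76 in Atg7-/- cells (1.54, SE 0.211, limma adjusted p = 0.000769), and H2ac10 read 6.06, 6.55, 6.28 and 6.42 against 7.59, 7.53, 7.72 and 7.8 (1.33, SE 0.125, adjusted p = 6.78e-05). H1f5, a linker histone, rose by 1.84 (adjusted p = 0.0167; 0.0518 to 0.0556 without replicate 2 of either genotype or Atg7-/- replicate 1), with Atg7-/- replicate 4 at 8.21 and the other 3 at 9.47 to 9.78. Copies of one histone can share probes, so these values are uncertain. Among 26 genes of the p53 response and DNA damage 4 were called (15.4%). Chek1, the kinase of the replication checkpoint (0.84, adjusted p = 0.000881), and Brip1, a helicase of the Fanconi pathway (0.77, 0.00359), rose. Ccng2, an atypical cyclin of resting cells, fell by 0.60 (adjusted p = 0.00462), and Trp53inp1 by 0.44 (0.0431, lost without any 1 array at 0.056 to 0.132).

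In the respiratory chain and its assembly factors 62 of 66 genes had a positive difference, against 55.5% of all genes. The arrays of 27 did not overlap, against 14.1%, and 6 genes rose and none fell (9.09% called, against 3.14%). The median was 0.16, and the list mean was 8.6, 8.61, 8.58 and 8.47 in controls and 8.72, 8.72, 8.73 and 8.77 in Atg7-/- cells. Of the 6 called genes 4 were assembly factors of complex I. Ndufaf6 was tight at 6.29, 6.3, 6.32 and 6.34 in controls and read 6.74, 6.72, 6.67 and 6.95 in Atg7-/- cells (0.45, SE 0.087, limma adjusted p = 0.00729), the 1 call kept without each array. Ndufaf7 rose by 0.50 (adjusted p = 0.0273), Ndufaf4 by 0.39 (0.0157) and Ndufaf5 by 0.36 (0.0483), with the subunits Ndufa8 of complex I (0.41, 0.043) and Cox7a2 of complex IV (0.30, 0.0282). Ndufaf4 was lost without Atg7+/- replicate 3 or 4 (0.0535 and 0.055), Ndufaf7 without Atg7+/- replicate 1, 3 or 4 or Atg7-/- replicate 1 or 3 (0.0636 to 0.0937), Cox7a2 without any array but Atg7-/- replicate 2 (0.054 to 0.0805), and Ndufaf5 (0.059 to 0.118) and Ndufa8 (0.0529 to 0.125) without any 1 array. The count was 1 without Atg7+/- replicate 3 or 4, 2 without replicate 1 of either genotype or Atg7-/- replicate 3, 3 without Atg7+/- replicate 2 or Atg7-/- replicate 4, and 4 without Atg7-/- replicate 2. No gene was called among 38 of the TCA cycle and fatty acid oxidation or 34 of mitochondrial dynamics and quality control, which include the machinery of mitophagy. Small positive differences prevailed there too, in 29 of the 38 (median 0.08) and 28 of the 34 (median 0.10).

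Among 23 S100, galectin, annexin and related genes 3 rose and 1 fell (17.4% called, against 3.14% of all genes). S100a6, a calcium-binding protein, read 9.44, 9.64, 9.62 and 9.3 in controls and 10.92, 10.76, 10.82 and 11.1 in Atg7-/- cells (1.40, SE 0.233, limma adjusted p = 0.00281), and Lgals1, galectin-1, read 8.97, 9.31, 9.38 and 9.13 against 10.24, 10.33, 10.22 and 10.46 (1.12, SE 0.187, adjusted p = 0.00308). S100a4 rose by 1.18 (0.0185; 0.0546 to 0.0651 without replicate 1 or 4 of either genotype), and Ahnak, a large scaffold that binds S100 proteins, fell by 0.56 (0.0205; 0.0502 to 0.0738 without Atg7+/- replicate 2 or 3 or Atg7-/- replicate 1 or 4). Other S100 genes, S100a8 and S100a9, are neutrophil markers; they differed by 1.05 and 0.74 without being called (adjusted p = 0.301 and 0.372), and the neutrophil list mean was 3.98 to 4.39 in controls and 4.44 to 4.58 in Atg7-/- cells, with 0 of 7 called. The part of such cells in the values above was not tested. Among stromal and endothelial markers Pecam1, which T cells also express, rose by 0.60 (adjusted p = 0.0181).

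Cell death genes gave 2 rises and no fall in 28 (7.14% called, against 3.14% of all genes). Casp6, an effector caspase, read 5.79, 6.04, 5.76 and 5.8 in controls and 6.72, 6.82, 6.63 and 6.63 in Atg7-/- cells (0.85, SE 0.156, limma adjusted p = 0.00557), and Casp4 (caspase-11), the sensor of cytosolic lipopolysaccharide, rose by 0.59 (0.0189; 0.0538 to 0.064 without replicate 1 or 4 of either genotype). Morrbid, a noncoding RNA known to restrain its neighbour Bcl2l11 in cis, read 4.07, 4.09, 4.24 and 4.23 against 5.14, 5.26, 5.12 and 5.65 (1.14, SE 0.129, adjusted p = 0.000345). Bcl2l11, which encodes the death inducer Bim, read 7.54, 7.49, 7.46 and 7.52 against 6.84, 7.35, 7.15 and 6.69; all 4 Atg7-/- arrays were lower, but the difference of -0.49 was not called (adjusted p = 0.238).

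Of 35 interferon-stimulated genes, which include targets of interferon gamma, none rose and 2 fell (5.71% called, against 3.14% of all genes), Irf1 by 0.50 (limma adjusted p = 0.0189; 0.0591 to 0.0645 without replicate 4 of either genotype or Atg7-/- replicate 1) and Irgm2 by 0.44 (0.0488, lost without any 1 array at 0.0532 to 0.128). The Gimap GTPases, lymphocyte survival factors encoded in 1 cluster, had 2 of 8 called (25.0%), Gimap3 (-0.43, 0.0162) and Gimap6 (-0.34, 0.0345). Gimap3 was lost without Atg7+/- replicate 3 or 4 or Atg7-/- replicate 1 or 4 (0.0506 to 0.0549) and Gimap6 without any array but Atg7-/- replicate 3 (0.0525 to 0.107), so none was left without Atg7+/- replicate 3 or 4 or Atg7-/- replicate 1 or 4. No Schlafen gene of 8 was called.

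Some of the strongest single differences lay outside every pathway list. Actg2, smooth muscle gamma actin, read 6.98, 6.76, 7.19 and 6.45 in controls and 8.37, 8.26, 8.31 and 7.85 in Atg7-/- cells (1.35, SE 0.194, limma adjusted p = 0.000889). Neurl3, a ubiquitin ligase, read 10.26, 10.45, 10.45 and 10.49 against 9.14, 9.81, 9.59 and 9.29 (-0.96, SE 0.158, adjusted p = 0.00279), and Cbarp, a regulator of voltage-gated calcium channels, fell by 0.95 (0.00353). Klhl24, a substrate adaptor of a Cullin 3 ubiquitin ligase, fell by 0.85 (0.00182). Uty, a Y-linked histone demethylase gene, read 7.75, 7.82, 7.86 and 7.83 in controls and 6.45, 7.02, 7.05 and 7.16 in Atg7-/- cells (-0.90, SE 0.169, adjusted p = 0.0065), whereas the Y-linked Kdm5d differed by -0.15 and Eif2s3y by -0.37, neither called.

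The genotype difference was measured again, in other mice, in the rapamycin-treated groups, whose 8 arrays the untreated contrast does not use except for the shared estimate of spread. Under rapamycin 543 genes were called (3.24%), 320 higher (1.91%) and 223 lower (1.33%). Of the 294 untreated risers 81 were also called there in the same direction, 27.6% of the untreated and 25.3% of the rapamycin list, and of the 233 fallers 92 were, 39.5% and 41.3%. The sign was shared by 274 of the risers and 212 of the fallers, none was called the opposite way, and the medians under rapamycin were 0.30 and -0.32, smaller than the 0.52 and -0.52 by which the genes had been chosen. Called again were Il4 (1.28, limma adjusted p = 0.0129), Il3 (2.17, 0.00632), Ccl3 (1.33, 0.00896), Nqo1 (1.16, 0.00656), Vps37b (-1.05, 0.0111), Ptpn13 (-1.76, 0.000418), Pik3r1 (-0.67, 0.00249), Pde2a (-0.95, 0.00632), Plagl1 (-0.94, 0.000418) and Uty (-1.01, 0.00616). Ifng (1.18, 0.103), Il13 (1.07, 0.0594), Foxp3 (-0.35, 0.0662) and Hspa1a (-0.74, 0.488) had the same sign without being called.

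**Figure D4:**
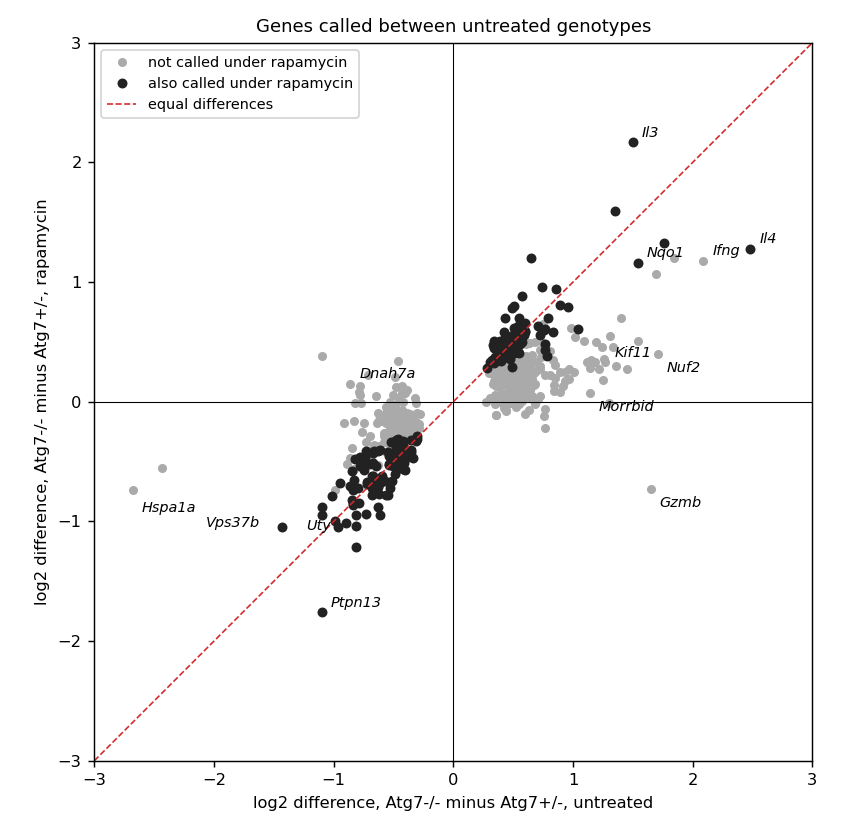
Log2 difference between genotypes in untreated cells (horizontal axis) and in rapamycin-treated cells (vertical axis) for the 527 genes called in untreated cells; black dots were also called under rapamycin, grey dots were not, and the dashed line marks equal differences. Il4 (2.48 and 1.28) and Vps37b (-1.43 and -1.05) have the same sign in both, and Gzmb (1.65 and -0.73) has opposite signs.

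Whether the 2 genotype differences were unequal was tested as an interaction. No gene passed the limma adjusted threshold; 1052 genes (6.28%) had an unadjusted p under 0.05, and the smallest adjusted p was 0.139. Ranked by p, the leading genes on the side of a more positive difference in untreated cells were Morrbid (1.14 untreated, 0.07 rapamycin, limma adjusted p = 0.139), Gzmb (1.65 and -0.73, 0.139) and H2ac10 (1.33 and 0.46, 0.232). On the other side were Trappc6a, of a vesicle tethering complex (-0.20 and 0.50), Nemp1, of the nuclear envelope (-0.22 and 0.46), and Dnah7a, an axonemal dynein (-0.86 and 0.15), each at an adjusted p of 0.139. The mitosis list had a median of 0.42 without and 0.12 with rapamycin, where 1 member rose and 1 fell, and Nuf2 went from 1.71 to 0.40 (interaction adjusted p = 0.31) and Mki67 from 1.45 to 0.27 (0.533). In contrast, the respiratory chain list had medians of 0.16 and 0.27, with 6 and 10 members called, all higher, and the nucleotide synthesis list 0.22 and 0.20. Differences between list medians were not tested.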

How the data were processed

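Gene expression was measured on 16 arrays of sorted, stimulated Treg cells, 4 per group; per the labels' protocols 1 to 5 ng of total RNA was amplified and labelled with biotin. The authors deposited a table of log2 values with 41345 probe sets as lines. The submitters' processing notes name RMA and Partek 6.6, with no settings. That the logarithm has base 2, as in RMA, is an assumption here, because no header states it, and folds rest on it. Values ran from 1.4886 to 13.4975. No header or label states the genome build, the annotation version or hybridization batches. Arrays give no read depth, so their number limits the precision.

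Probe sets were named through GEO's platform annotation: 23521 had 1 gene symbol, 1814 several and 16010 none listed. A gene's brightest probe set over all arrays stood for it, and genes were tested where the highest group mean exceeded 3.549, the 30th percentile of all values, so passing does not show expression in both groups. All 16 arrays entered 1 limma model (version 3.58.1, R 4.3.3, lmFit and eBayes) with a mean for each group. Tests were two-sided with Benjamini-Hochberg adjustment over 16760 genes, and the threshold for a call was an adjusted p of 0.05. SE is that of the moderated fit, and the script was tested on simulated data. Promoter windows came from RefSeq (GRCm38.p6), matched by symbol for 12971 of the tested genes.

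Members and gene lists were chosen with earlier results of these data known, so list counts stand beside the share over all genes and have no test. Named genes follow a rule: a fixed set led by Atg7, Foxp3 and Il4, the 20 largest called risers and 20 largest called fallers without overlap, up to 8 called members of each list described (2 by p where none was called) and the 3 smallest interaction p-values in each direction. Any other gene was named after its values were seen.

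Replicate numbers 1 to 4 recur in each group. Deviations of same-numbered untreated arrays correlated at -0.034, 0.015, 0.071 and 0.042, so the numbers were not taken to pair samples. Alternatives covered the samples in the fit, the replicate block, scaling, the filter, the probe set rule, the variance prior, array weights and leaving out each untreated array.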

Additional observations from a re-analysis of the deposited data

Results flagged for a closer look

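Within a group of 4 arrays, 1 array lay far from the other 3 for 21 of the 334 groups of named genes screened (the gap over the group's range exceeded Dixon's critical value for 4 samples); chance alone gives about 1 in 20, so this number is near what chance gives. Among Atg7+/- arrays, replicate 1 was low for Il4 (6.11, the others 6.39 to 6.45), Cdc45 (4.88, others 5.15 to 5.19), Nsdhl, of sterol synthesis (6.59, others 6.9 to 6.91), and Sqstm1 (9.07, others 9.1), and high for Kif11 (5.39, others 5.05 to 5.1). Replicate 2 was low for Ccl3 (6.66, others 7.33 to 7.41) and high for Casp6 (6.04, others 5.76 to 5.8), H2ac15 (8.39, others 8.0 to 8.03) and Foxp3 (11.32, others 11.24). Replicate 3 was high for Ccl5 (8.06, others 7.74 to 7.75) and low for Rrm2 (4.99, others 5.36 to 5.37). Replicate 4 was low for Knl1 (4.12, others 4.24 to 4.25), Mt1 (6.11, others 6.21 to 6.22) and Psph (6.28, others 6.4 to 6.41).

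Among Atg7-/- arrays, replicate 4 was low for Myc (10.74, others 11.08 to 11.12) and Lad1 (9.1, others 9.39 to 9.43) and high for Themis (7.54, others 7.21 to 7.24) and the electron transfer flavoprotein gene Etfb (8.17, others 7.86 to 7.88). Replicate 1 was low for Ypel4 (4.7, others 5.07 to 5.13) and high for Ctla4 (10.81, others 10.77). Replicate 2 was high for Dnah7a (3.64, others 3.24 to 3.3).

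Probe sets that no gene list could use also held differences. In a fit over all probe sets, 85 of 11448 tested probe sets with no listed gene passed the adjusted threshold (0.742%); 21 of these read higher in Atg7-/- cells and 64 lower. The same fit called 304 of 17806 probe sets with 1 symbol (1.71%) and 41 of 1328 with several (3.09%).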

How the results depend on the processing

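The count of genes called between untreated genotypes, 527, was 974 with array weights (525 shared), 318 with each array centred on its median (313 shared) and 284 to 399 when 1 array was left out; under the remaining alternatives it stayed within 1.5 times. With the replicate number as a replicate block it was 529 (457 shared), and no block value is read as a paired result, since the numbers did not pair the samples. The count under rapamycin, 543, was 820 with the filter at the 50th percentile, 350 with median centring, 886 with the trend and robust prior, and 414 to 590 without 1 untreated array. Over all lists together 128 members were called, 202 with array weights and 83 to 110 without 1 array. The interaction gave 0 calls under every alternative run. Of 131 called named genes 80 kept their call in all 17 alternatives, 50 lost it without some single array and 29 under another alternative, and none changed sign. Among genes not called, the difference changed sign when 1 array was left out for Hspa8 (-0.0494 to 0.00516, positive without Atg7-/- replicate 2), Myc (-0.123 to 0.00359, positive without Atg7-/- replicate 4) and Tbx21 (-0.0332 to 0.166, negative without Atg7-/- replicate 3). The causes were not tested. Faint genes such as Nuf2 and Nqo1 lie near the signal threshold in controls, so their folds are less certain. The direction of any bias was not tested.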

Other observations

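A few further genes with low signal fell in Atg7-/- cells outside the pathways described. Dnah7a, an axonemal dynein gene, read 4.07, 4.17, 4.46 and 4.18 in Atg7+/- and 3.27, 3.64, 3.3 and 3.24 in Atg7-/- cells (-0.86, SE 0.132, limma adjusted p = 0.00157), so it went from above the signal threshold of 3.549 to around or below it. Krtap31-1, a keratin-associated protein gene, read 4.38, 4.11, 5.16 and 4.37 against 3.84, 3.62, 3.4 and 3.54 (-0.91, SE 0.167, adjusted p = 0.00572). Ypel4 fell by 0.86 (adjusted p = 0.0149), a call lost without Atg7+/- replicate 3 or Atg7-/- replicate 1 (0.0525 and 0.0545). Ctla2b, related to the propeptide of cathepsin L, fell by 0.84 (adjusted p = 0.0488), a call kept without Atg7+/- replicate 4 or Atg7-/- replicate 2 and lost without each other array (0.0688 to 0.148).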
